A study of Mus musculus with 4 samples.

Results

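Complex I subunit genes were taken by their symbol, as every gene on the array whose name begins with Ndufa, Ndufb, Ndufc, Ndufs or Ndufv followed at once by a digit. The rule found 35 such genes among the 18193 genes that a probe set of 1 symbol reads, through 73 probe sets. It leaves out the assembly factors, and it takes in Ndufa4, whose product is counted with complex IV, and Ndufa4l2, a relative of Ndufa4 that low oxygen is known to raise. A further 9 probe sets name a member together with another gene, and no gene was named from them, so Ndufa11 and Ndufs6 have no reading of their own.

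The arrays were Affymetrix Mouse Genome arrays of MC/9, a mast cell line labelled as of liver origin with a (B6 X A/J)F1 background. The 4 groups held 1 array each: berberine with anti-DNP IgE (BER+DNP), berberine alone at 10 microM (BER), anti-DNP IgE alone at 500 microg/ml (DNP) and untreated cells (control). The treated cells had 24 h of treatment and 6 h of further culture, and the label of the combined treatment repeats no doses; no times are given for the control. Nothing says whether the 4 RNA samples came from separate cultures on separate days, and with 1 array a group there is no replicate error, so no p-value is given and each value below describes these arrays.

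Complex I is the entry point of the respiratory chain. Its matrix arm takes electrons from NADH at the tip (the N module), passes them along iron-sulphur clusters and hands them to ubiquinone near the membrane (the Q module), and its membrane arm, with a proximal and a distal part, pumps protons. A set of core subunits shared with bacteria carries the chemistry, the other subunits are called supernumerary, and some core subunits are made from mitochondrial DNA. Berberine is a plant alkaloid that inhibits the complex. Transcripts do not measure the complex or its activity.

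The core subunit genes with the lowest berberine differences were Ndufv1, Ndufv2, Ndufs7 and Ndufs8, and their promoters are shown because by their brightest probe sets these genes read lower together on both berberine arrays (values below). The lines give 150 bases before and 50 bases after the start of the gene in RefSeq, assembly GRCm38.p6, 5′ to 3′ on the gene's own strand, with a motif match in capitals.
Ndufv1, chr19:4012706-4012905, minus strand: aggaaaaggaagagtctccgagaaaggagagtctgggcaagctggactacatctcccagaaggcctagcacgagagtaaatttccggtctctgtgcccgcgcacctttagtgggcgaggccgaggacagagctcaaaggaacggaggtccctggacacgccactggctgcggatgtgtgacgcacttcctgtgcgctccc
Ndufv2, chr17:66101510-66101709, minus strand: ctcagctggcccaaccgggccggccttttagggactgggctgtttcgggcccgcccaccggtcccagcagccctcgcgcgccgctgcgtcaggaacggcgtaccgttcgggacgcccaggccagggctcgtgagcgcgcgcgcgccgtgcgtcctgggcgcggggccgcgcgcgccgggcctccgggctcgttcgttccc
Ndufs7, chr10:80249299-80249498, plus strand: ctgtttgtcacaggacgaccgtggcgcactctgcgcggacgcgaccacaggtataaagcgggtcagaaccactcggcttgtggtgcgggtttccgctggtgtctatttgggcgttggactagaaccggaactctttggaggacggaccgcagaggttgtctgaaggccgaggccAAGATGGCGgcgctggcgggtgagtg
Ndufs8, chr19:3912725-3912924, minus strand: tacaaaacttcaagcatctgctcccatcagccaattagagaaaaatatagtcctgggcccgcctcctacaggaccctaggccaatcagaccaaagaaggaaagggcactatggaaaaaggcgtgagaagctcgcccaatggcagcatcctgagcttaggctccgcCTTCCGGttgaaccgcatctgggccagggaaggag

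The motifs searched, on both strands and none contained in another, were TGCGCA (a core of the NRF1 type), CCGGAAG (ETS type, as bound by GABP) and AAGATGGCG (YY1 type), in windows of 300 bases with 250 before the start. Ndufs7 held AAGATGGCG and Ndufs8 held CCGGAAG on the reverse strand, while the windows of Ndufv1 and Ndufv2 held none of these letters. Of the 35 members, 31 had a promoter in the table. TGCGCA was in 9 of the 31 promoters (29.0%), against 8.79% of 27025 genes. AAGATGGCG was in 4 (12.9%), against 1.64%, and CCGGAAG in 4 (12.9%), against 9.93%. Of the 21 members with a promoter that passed the filter on signal described below, 3 held TGCGCA, 2 CCGGAAG and 3 AAGATGGCG, and of the 11 of these that were below 0 in both berberine pairs, 1, 2 and 2 did. A match describes letters in a window and is not a bound site.

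Genes entered the counts if the mean log2 signal of their brightest probe set reached 3.138, the median of all probe sets other than controls. That left 25 of the 35 members and 12585 of all genes. The 10 members below it were Ndufa1, Ndufa5, Ndufa9, Ndufb1, Ndufb4, Ndufb5, Ndufb6, Ndufb10, Ndufs3 and Ndufs5, with mean log2 signals between 2.40 and 3.04. The brightest of them, Ndufb1, had 3.04, and the dimmest member past the filter, Ndufa10, had 3.66. Signals of different probe sets are not levels and are not compared between genes. The only mitochondrially encoded complex I gene with a probe set, ND5, had a mean log2 signal of 1.77, below the filter.

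The arrays correlated with each other at Pearson's r of 0.988 to 0.991 over probe sets. Of 11 mast cell marker genes, 5 passed the filter that 12585 of 18193 genes passed, with mean log2 signals of 5.87 (Gata2), 5.50 (Hdc), 4.08 (Tpsb2), 3.85 (Mcpt4) and 3.31 (Cma1). The defining markers Kit, Fcer1a, Ms4a2, Cpa3 and Tpsab1, and Srgn, were below it, between 1.95 and 2.78. Of 7 epithelial markers 6 passed, Krt17 (9.60), Krt14 (8.61), Krt8 (7.33), Krt5 (5.84), Epcam (5.14) and Krt18 (3.91), while Cdh1 did not. Of 4 fibroblast markers 3 passed, Col1a2 (4.32), Dcn (4.04) and Pdgfra (3.61), while Col1a1 did not. Of 5 other blood cell markers with a probe set 3 passed, Cd3e (5.26), Adgre1 (3.99) and Cd14 (3.46), while Ptprc and Itgam did not. A dim probe set does not show that a gene is silent, so these signals do not settle what the cells were. Mast cell markers past the filter had a median log2 difference of 0.13 in BER against control and -0.12 for BER+DNP over DNP, and epithelial markers -0.05 and 0.04. Control probe sets of beta-actin read lower with berberine, with log2 differences of -0.57 at the 5′ end and -0.31 at the 3′ end in BER against control and -0.59 and -0.22 for BER+DNP over DNP. Those of Gapdh lay between -0.08 and 0.12, and the 24 probe sets of spiked poly-A transcripts had medians of -0.48 and -0.14. The part of these control readings in the differences below was not tested.

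Berberine was set against its absence in 2 pairs of arrays that share none, BER against control and BER+DNP against DNP. Complex I subunit genes read slightly lower on the berberine array of each pair. Their median log2 difference was -0.09 in BER against control and -0.14 for BER+DNP over DNP, where all genes past the filter had 0.00 and -0.02. Below 0 lay 17 of 25 members in BER against control (49.9% of all genes) and 18 of 25 in BER+DNP against DNP (53.2%). In both pairs 14 members were below 0 and 4 above, against 29.7% and 25.4% of all genes, and 7 had opposite signs.

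No difference was large. In BER against control 0 of the 25 members were 1.5-fold apart in either direction (1.99% of all genes were), and their log2 differences ran from -0.46 to 0.25. In BER+DNP against DNP 0 members were 1.5-fold apart (1.21%), with a range of -0.45 to 0.27. For 10 members both berberine arrays read below both arrays without berberine, against 19.7% of all genes: Ndufv1, Ndufv2, Ndufs4, Ndufs7, Ndufs8, Ndufa6, Ndufa7, Ndufb3, Ndufb9 and Ndufb11. For 2 members, Ndufa13 and Ndufc2, both read above (16.1%).

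**Figure D1:**
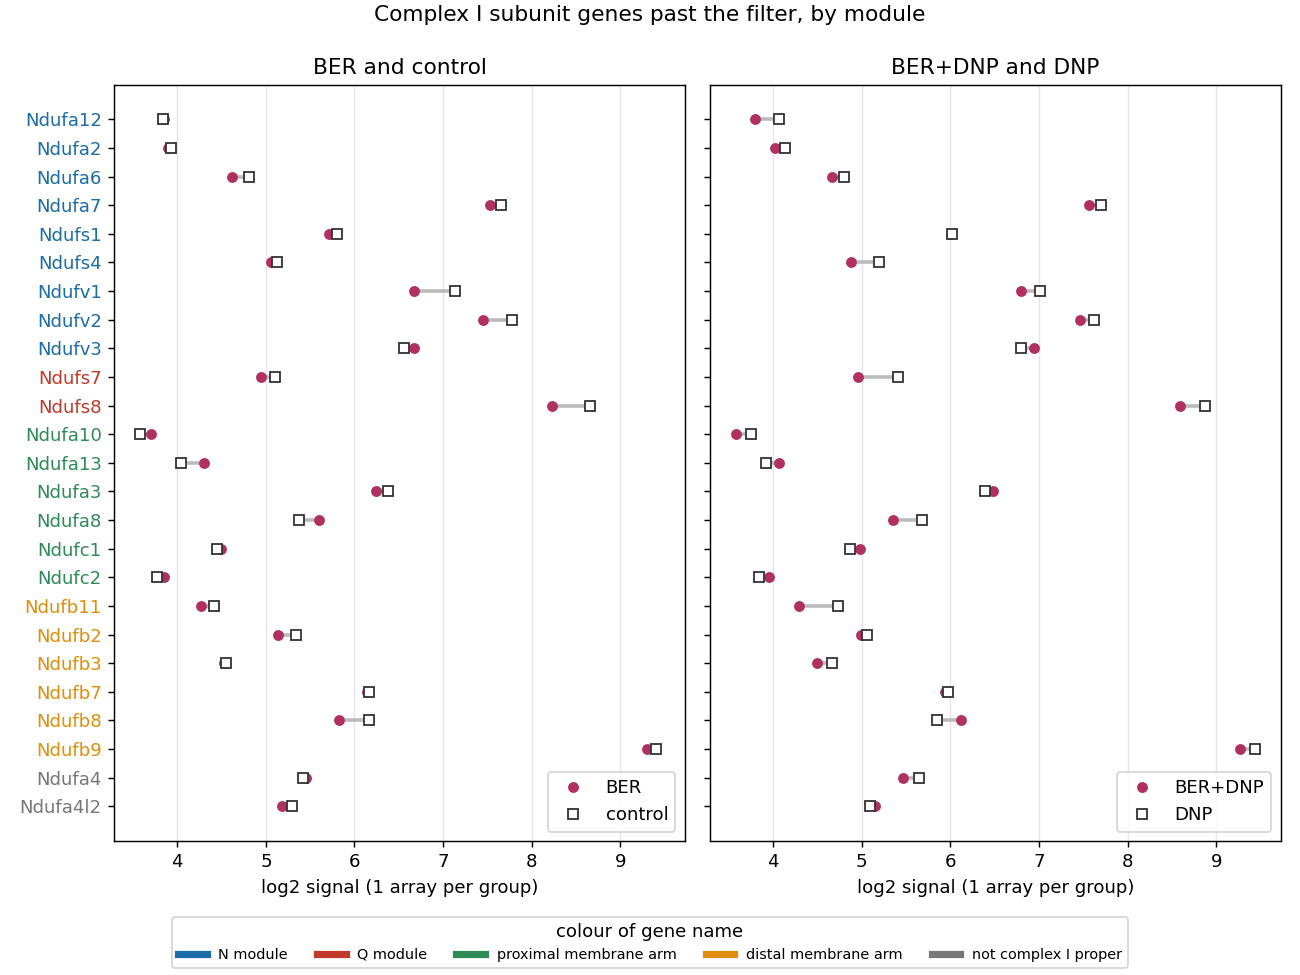
Log2 signals of the 25 complex I subunit genes past the filter, by their brightest probe set, on the BER and control arrays (left) and on the BER+DNP and DNP arrays (right), with 1 array per group and gene names coloured by module. Distances are read within a row; filled circles lie left of open squares in most rows of the N and Q modules, and no row is 1.5-fold apart.

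By their brightest probe sets the core subunits, which hold the cofactors, read lower in both pairs. All 5 core genes past the filter were below 0 in both pairs, where 29.7% of all genes were. Their medians were -0.33 in BER against control and -0.22 for BER+DNP over DNP. The 18 supernumerary genes past the filter had medians of -0.03 and -0.12, with 9 below 0 in both pairs and 4 above. When each gene was read by the median of all its probe sets, an alternative chosen after the values were seen, 3 of 5 core genes were below 0 in both pairs, with medians of -0.09 and -0.01, so the lower core values rest on the brightest probe sets. The difference between core and supernumerary genes was not tested.

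Ndufs8, a core subunit of the Q module that carries iron-sulphur clusters, had a log2 signal of 8.23 in BER against 8.66 in control, and 8.59 in BER+DNP against 8.87 in DNP. The berberine arrays thus read lowest, with log2 differences of -0.43 and -0.29. Of all genes past the filter, 1.14% were as low as Ndufs8 or lower in both pairs. Ndufv1, which binds NADH and its flavin cofactor, had 6.68 in BER against 7.14 in control, and 6.80 in BER+DNP against 7.01 in DNP. Its differences of -0.46 and -0.22 made it the lowest member in BER against control. Ndufv2, its partner with an iron-sulphur cluster, had 7.45 in BER against 7.78 in control, and 7.47 in BER+DNP against 7.62 in DNP, and its berberine arrays lay close together below the others.

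Ndufs7, which carries the cluster that hands electrons to ubiquinone, had 4.94 in BER against 5.11 in control, and 4.96 in BER+DNP against 5.41 in DNP. The berberine arrays were alike and DNP stood highest, so the differences of -0.16 and -0.45 differ mostly through the array without berberine. Ndufs1, the largest core subunit, had 5.71 in BER against 5.80 in control, and 6.01 in BER+DNP against 6.02 in DNP. Its differences of -0.09 and -0.01 are near 0 and its arrays overlap between the groups. Ndufs3, a core subunit of the Q module, was below the filter, with 2.98 in BER against 3.27 in control and 2.88 in BER+DNP against 2.91 in DNP.

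Of the supernumerary N module genes past the filter, Ndufs4, Ndufa2, Ndufa6 and Ndufa7 were below 0 in both pairs. Ndufa12 had opposite signs and Ndufv3 was above 0 in both. The N module with its core genes Ndufv1, Ndufv2 and Ndufs1 had 7 of 9 genes below 0 in both pairs (29.7% of all genes). Its medians were -0.09 and -0.14. By the median of all probe sets it had 3 of 7 (28.7% of all genes) and medians of -0.13 and 0.00. These counts leave out Ndufs6, whose probe set also names Ndufs6b. That probe set had 4.07 in BER against 4.51 in control, but 4.30 in BER+DNP against 4.02 in DNP. Ndufs4, an accessory subunit whose loss causes a fatal brain disease in mice, had 5.06 in BER against 5.12 in control, and 4.88 in BER+DNP against 5.19 in DNP. By this probe set its lower reading came mainly in the second pair. Its other probe sets were below the filter. By the median of all of them Ndufs4 had -0.19 in BER against control and 0.01 for BER+DNP over DNP. Ndufa6, an accessory subunit that docks an acyl carrier protein, had 4.62 in BER against 4.81 in control, and 4.66 in BER+DNP against 4.80 in DNP, with non-overlapping berberine arrays. Ndufv3, an accessory subunit at the tip, went the other way. It had 6.68 in BER against 6.56 in control, and 6.94 in BER+DNP against 6.79 in DNP, differences of 0.12 and 0.15. The remaining N module genes, Ndufa2, Ndufa7 and Ndufa12, had differences between -0.13 and 0.02 in BER against control and between -0.27 and -0.12 for BER+DNP over DNP.

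The proximal and distal parts of the membrane arm had medians of opposite sign. None of the 6 proximal genes past the filter was below 0 in both pairs and 3 were above, with medians of 0.10 and 0.10. In the distal part 5 of 6 genes were below 0 in both pairs, with medians of -0.12 and -0.12. Of all genes 29.7% were below 0 in both pairs and 25.4% above. By the median of all probe sets the proximal medians were 0.15 and 0.01, with 1 gene below 0 in both pairs, and the distal medians -0.11 and -0.08, with 3 of 6. This contrast was seen after the values were known and was not tested. It leaves out Ndufa11, a proximal gene whose probe sets also name Ndufa11b. The brighter of them had 4.62 in BER against 5.05 in control and 4.74 in BER+DNP against 4.87 in DNP, lower in both pairs. The dimmer had 2.73 against 2.94 and 2.85 against 2.74 in the same order. In the proximal arm Ndufa13, also called GRIM-19, had 4.30 in BER against 4.05 in control, and 4.06 in BER+DNP against 3.92 in DNP, the highest member by mean difference. A brighter probe set that names both Ndufa13 and Yjefn3 was nearly flat, with 4.93 in BER against 4.90 in control and 4.96 in BER+DNP against 4.94 in DNP. A dimmer one went lower, with 3.56 against 3.66 and 3.63 against 3.79 in the same order. Ndufc2, a membrane subunit, had 3.85 in BER against 3.77 in control and 3.95 in BER+DNP against 3.84 in DNP, small differences above 0. Ndufa8, which faces the intermembrane space, had 5.60 in BER against 5.38 in control, but 5.35 in BER+DNP against 5.68 in DNP. Ndufa10, related to nucleoside kinases, likewise had 3.70 in BER against 3.58 in control and 3.58 in BER+DNP against 3.75 in DNP, so these genes had opposite signs in the pairs. A second probe set of Ndufa10, past the filter, gave 0.36 and 0.19. Ndufa3 was at -0.13 and 0.09, and Ndufc1 at 0.04 and 0.12.

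In the distal arm Ndufb11, the product of an X-linked gene, had 4.27 in BER against 4.41 in control, and 4.29 in BER+DNP against 4.73 in DNP. As with the brightest probe set of Ndufs7, the berberine arrays were alike and DNP stood apart. Ndufb2 had 5.13 in BER against 5.34 in control, and 4.99 in BER+DNP against 5.06 in DNP. Its arrays overlap between the groups, since BER reads above DNP. Ndufb3, Ndufb7 and Ndufb9 had differences between -0.17 and -0.02 over both pairs. Ndufb8, another membrane subunit, had 5.83 in BER against 6.17 in control, but 6.12 in BER+DNP against 5.85 in DNP, so its pairs oppose each other. A second probe set of Ndufb8, below the filter, gave -0.20 and -0.06.

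The genes counted outside complex I proper had no common direction. Ndufa4 had differences of 0.04 and -0.17, and Ndufa4l2 -0.11 and 0.06. Without them the medians were -0.09 and -0.14 over 23 genes. Among the 10 members below the filter 3 were below 0 in both pairs and 3 above. The highest of these was Ndufs5, with 2.61 in BER against 2.19 in control and 3.02 in BER+DNP against 2.60 in DNP; its signals are too dim for more than a description.

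**Figure D2:**
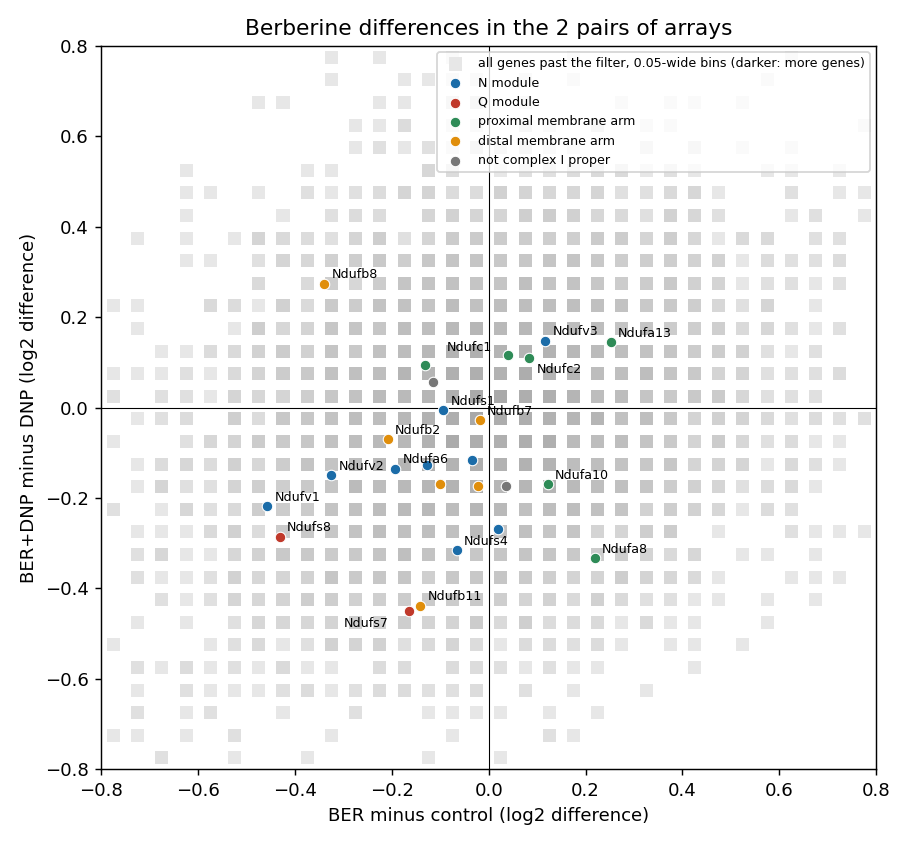
Log2 difference of each member past the filter in BER minus control (horizontal) and BER+DNP minus DNP (vertical), coloured by module, over all 12585 genes in grey bins. The 5 core genes lie below 0 on both axes and Ndufv3, Ndufa13, Ndufc1 and Ndufc2 above.

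Several members have more than 1 probe set, which gives a reading of how far the differences depend on the probes. Of 48 member probe sets past the filter, 24 were below 0 in both berberine pairs and 7 above, against 29.5% and 25.2% of probe sets of all genes. The 11 genes with several such probe sets had 34 of them. Within a gene the span of the probe sets was 0.24 by its median in BER against control and 0.32 for BER+DNP over DNP, more than the median difference of the members. Only for Ndufb2 were all such probe sets (3) below 0 in both pairs. A further probe set that names both Ndufb2 and Adck2 was not counted. It had 3.89 in BER against 4.18 in control, but 4.41 in BER+DNP against 4.05 in DNP.

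The probe sets of the core genes did not read alike. Of 6 probe sets of Ndufs8, 4 were below 0 in both pairs, with the brightest at -0.43 and -0.29 and the dimmest at -0.26 and -0.27. The others were at 0.09 and 0.04 and at 0.31 and -0.13. Both of these carry the suffix x, of a type that can cross-hybridise, and so does 1 of the 4, at -0.46 and -0.08. The 3 probe sets of Ndufv2 gave -0.33 and -0.15, -0.36 and 0.00, and -0.52 and -0.41. All of them read lower in BER than in control. The second probe set of Ndufv1 past the filter gave -0.17 and 0.23, so the lower reading in BER+DNP against DNP rests on the brightest one. For Ndufb11 the other probe sets past the filter gave -0.38 and 0.23, and -0.10 and 0.05, likewise opposite to the brightest in BER+DNP against DNP.

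When each gene was read by the median of all its probe sets, 23 members passed the filter, and their medians were -0.07 in BER against control and -0.01 for BER+DNP over DNP, with 9 below 0 in both pairs (39.1%). All genes read in this way had medians of 0.00 and -0.02, with 28.7% below 0 in both pairs, so in BER+DNP against DNP the members then lay above all genes by their median. The lower reading in BER+DNP against DNP therefore depends on taking the brightest probe set. Quantile normalization gave medians of -0.06 and -0.07, and all 35 members without a filter gave -0.04 and -0.07.

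**Figure D3:**
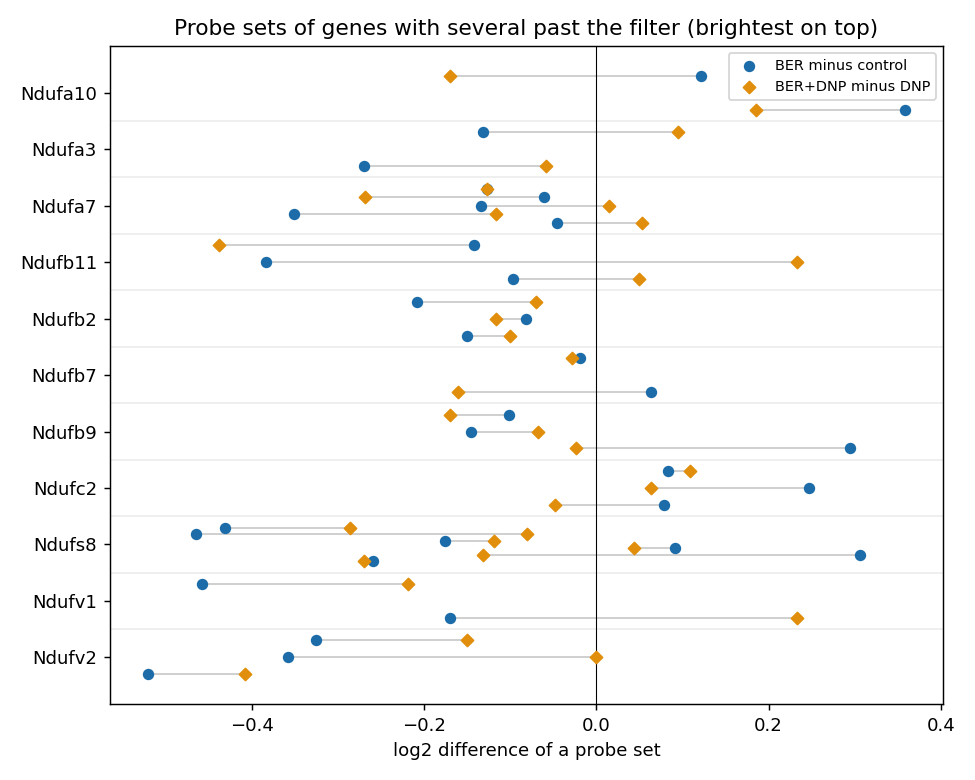
Log2 differences of single probe sets past the filter, for the 11 members with several, from the brightest down within each gene; circles are BER minus control and diamonds BER+DNP minus DNP, joined per probe set. The probe sets of Ndufb2 drawn all lie below 0, whereas those of Ndufs8, Ndufb11 and Ndufv1 fall on both sides.

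Anti-DNP IgE was set against its absence in DNP against control and in BER+DNP against BER. The members read slightly higher with the antibody, with medians of 0.07 and 0.02, where all genes had 0.02 and 0.00. In both pairs 11 of 25 were above 0 (29.4% of all genes) and 4 below (26.0%). Past 1.5-fold were 0 members in DNP against control (1.43% of all genes) and 0 in BER+DNP against BER (0.914%). For 6 members both antibody arrays read above both others (18.1%): Ndufc1, Ndufs1, Ndufv3, Ndufa2, Ndufa3 and Ndufa4. For 3 members, Ndufa4l2, Ndufb2 and Ndufb7, both read below (16.4%).

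Ndufc1, a membrane arm subunit, was the highest, with 4.86 in DNP against 4.45 in control and 4.98 in BER+DNP against 4.49 in BER. Its antibody arrays were clear of the others, at differences of 0.41 and 0.49, but its second probe set, below the filter at a mean of 2.56, gave -0.71 and -0.43. Ndufs8 followed, with differences of 0.21 and 0.36. Ndufs1 had 0.21 and 0.30. Lowest were Ndufb2, with differences of -0.28 and -0.14, Ndufb7, a subunit that faces the intermembrane space, with -0.19 and -0.20, and Ndufa13 with -0.13 and -0.24. The other probe sets of Ndufb2 past the filter gave 0.26 and 0.23, and -0.04 and 0.01, so its direction rests on the brightest one. The second probe set of Ndufb7 gave 0.08 and -0.14. For Ndufa13 the probe sets shared with Yjefn3 read higher with the antibody. The brighter had 4.94 in DNP against 4.90 in control and 4.96 in BER+DNP against 4.93 in BER. The dimmer had 3.79 against 3.66 and 3.63 against 3.56 in that order.

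BER+DNP against control shares arrays with the comparisons above. The median of the members was -0.06 and that of all genes 0.00, with 16 of 25 members below 0 (50.0% of all genes). Past 1.5-fold were 0 members (1.78% of all genes), the highest being Ndufc1 at 0.53 and the lowest Ndufb2 at -0.35, with Ndufv1 at -0.34 and Ndufv2 at -0.31. Another probe set past the filter had the opposite sign for Ndufv1 (0.34) and Ndufb2 (0.15), as did that of Ndufc1 below the filter (-0.57). By their brightest probe sets the largest difference of any member past the filter in the 5 comparisons was 1.44-fold. A second probe set of Ndufa10, past the filter, was at 0.63 here, with 3.90 in BER+DNP against 3.27 in control, while the brightest was at 0.00. Ndufs5, below the filter, was at 0.83.

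Assembly factors of the complex also lay mostly below 0 with berberine. Of the 11 assembly factors past the filter, 8 were below 0 in both berberine pairs (29.7% of all genes) and 1 above (25.4%). Their medians were -0.10 and -0.14. Ndufaf5, which modifies Ndufs7 during assembly, had 5.74 in BER against 6.14 in control and 5.75 in BER+DNP against 6.06 in DNP. Dmac2, a factor of the membrane arm, had 3.65 in BER against 3.88 in control and 3.46 in BER+DNP against 4.38 in DNP, the only assembly factor past 1.5-fold in any comparison, with DNP its highest array. Ndufaf1, of the early membrane arm, had -0.34 and -0.11. The highest were Ecsit at 0.03 and 0.08, Tmem186 at 0.04 and -0.18, and Ndufaf6 at -0.22 and 0.03. Ndufab1, the acyl carrier subunit that the symbol rule leaves out, was at -0.02 and -0.10.

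Of 10 regulators of respiratory chain genes past the filter, 7 were below 0 in both berberine pairs (29.7% of all genes) and 1 above (25.4%). Their medians were -0.06 and -0.05. By the median of all probe sets 3 of 7 were below and 3 above, with medians of -0.06 and 0.08, so the direction of the second median depends on the brightest probe sets. By the brightest probe sets Esrra, which encodes the nuclear receptor ERRalpha, was the regulator above 0 in both pairs. It had 7.97 in BER against 7.59 in control and 7.96 in BER+DNP against 7.63 in DNP, so both berberine arrays were above both others. The coactivator gene Pprc1 was the lowest, with 5.40 in BER against 5.92 in control and 5.65 in BER+DNP against 5.94 in DNP. Gabpb1, a GABP subunit, had differences of -0.18 and -0.32, and Nrf1 -0.15 and -0.20, while Tfb1m had 0.25 and -0.07 and Yy1 0.13 and -0.01. None of the 10 regulators was 1.5-fold apart in any comparison, where 674 of 12585 genes were.

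The subunit genes of complexes II to V, 33 past the filter, had 18 below 0 in both berberine pairs (54.5%), next to 14 of 25 complex I genes (56.0%), with medians of -0.08 and -0.03. By the median of all probe sets 13 of 28 genes of complexes II to V (46.4%) and 9 of 23 complex I genes (39.1%) were below 0 in both. Of 67 mitochondrial ribosomal protein genes 24 were below 0 in both (35.8%), with medians of -0.07 and -0.04. Among all genes the share was 29.7%. Of the 33 genes of complexes II to V 4 were past 1.5-fold in some comparison, next to 0 of 25 complex I genes. Of all genes past the filter 674 of 12585 were, so these counts are small. The differences between these lists were not tested.

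**Figure D4:**
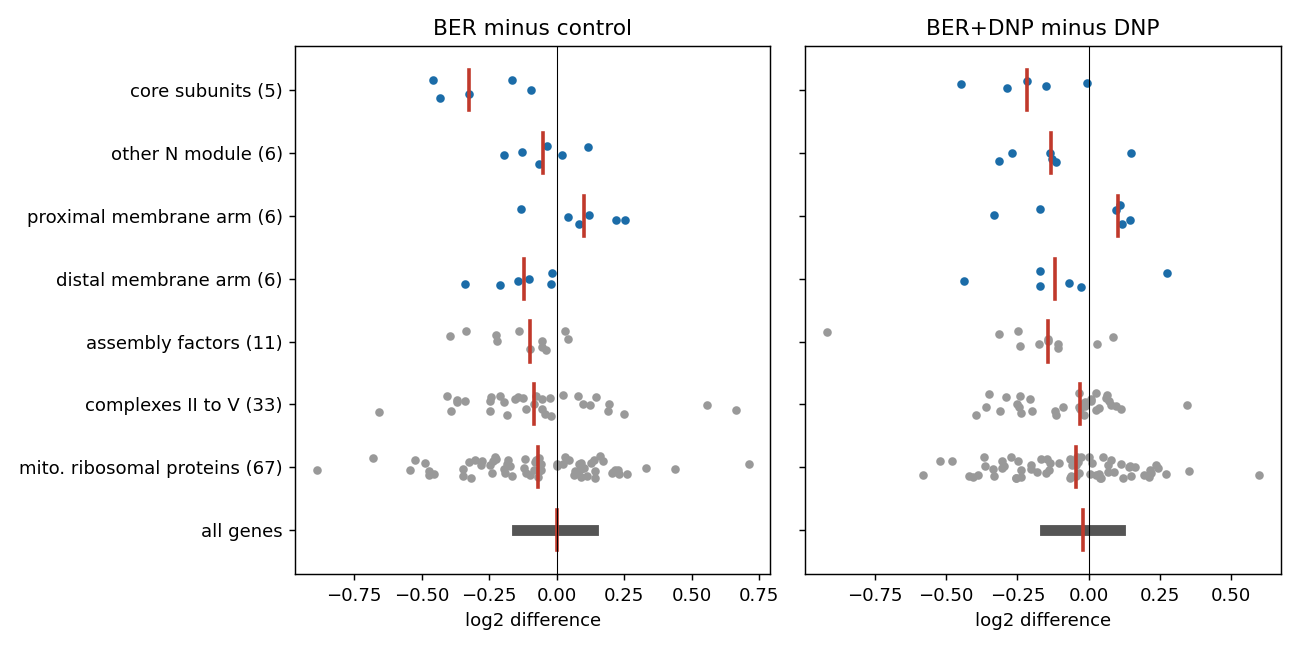
Log2 differences in BER minus control (left) and BER+DNP minus DNP (right) of genes past the filter, 1 point per gene, for groups of complex I subunits (blue) and other lists (grey), with medians in red; the bottom bar gives the quartiles of all genes. In both panels the median of the core subunits lies left of those of the other groups drawn, and that of the proximal membrane arm right of 0.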

How the data were processed

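Transcripts in total RNA of MC/9 cells were measured on 4 Affymetrix Mouse Genome arrays, 1 for each of BER+DNP, BER, DNP and control. Log2 signals of 45101 probe sets were deposited, which the authors made with Affymetrix Expression Console, per the submitters' processing notes; for the version, the summary algorithm and the detection calls nothing is given in the sources used here. The log2 scale was read from the values. The array medians lay between 3.13 and 3.15, and the table was used as deposited. Any floor in the unstated algorithm can shrink the differences of weakly read genes.

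Control probe sets (64) were kept out of all counts. A platform annotation of 2016 gave 1 symbol to 34945 probe sets and several to 932. Where a gene had several probe sets, the one with the highest mean log2 signal stood for it. All 35 members matched RefSeq (GRCm38.p6) by gene identifier, with 0 symbols changed. Comparisons are differences of log2 signals between 2 arrays, with 1.5-fold as the limit for counts, computed with Python 3.11.15, numpy 2.4.6 and pandas 2.3.3 and tested on simulated arrays with a known shift. The number of arrays limits the precision. With 1 array a group no p-value is given; a fit of both agents without an interaction was not run.

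The members and lists were chosen with earlier results of these data known. Full values are given for core subunits, for up to 8 higher and 8 lower members by mean berberine difference, for 3 higher and 3 lower by mean antibody difference, and for the 4 with the largest difference between the berberine differences. Other genes of the pathway are named if among the 3 highest or lowest of their list. Alternatives were the median of all probe sets, no filter or one at the 75th percentile, quantile normalization, 32 added to the linear signals, leaving out probe sets with suffix x or s, and leaving out Ndufa4 and Ndufa4l2.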

Additional observations from a re-analysis of the deposited data

Results flagged for a closer look

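By their brightest probe sets, the 2 pairs of 1 agent went opposite ways for 7 of the members described. With 1 array behind each value, the difference was not tested. With berberine, Ndufb8 was higher in BER+DNP against DNP (0.27) and lower in BER against control (-0.34), a difference of 0.61. Ndufa8 went the other way, with -0.33 in BER+DNP against DNP and 0.22 in BER against control, a difference of -0.55. Ndufa10 had -0.17 and 0.12 in the same order, a difference of -0.29. The same genes had opposite signs in the anti-DNP IgE pairs, where the difference is by construction the same number, with 0.29 in BER+DNP against BER and -0.32 in DNP against control for Ndufb8, -0.25 and 0.30 for Ndufa8, and -0.12 and 0.17 for Ndufa10. In these pairs alone, Ndufs4 had -0.18 in BER+DNP against BER and 0.07 in DNP against control, a difference of -0.25. Ndufv1 had 0.12 and -0.12 in that order, a difference of 0.24, Ndufv2 0.02 and -0.16, a difference of 0.18, and Ndufa6 0.05 and -0.01, a difference of 0.058. Among all members past the filter, 7 of 25 had opposite signs in the berberine pairs and 10 in the antibody pairs. The second probe set of Ndufa10, of nearly the same brightness, had 0.19 in BER+DNP against DNP and 0.36 in BER against control, so the opposite signs of Ndufa10 with berberine were seen with its brightest probe set only. For Ndufv1 the second probe set past the filter had 0.51 in BER+DNP against BER and 0.11 in DNP against control. The other probe sets of Ndufv2 had -0.04 and -0.40 in that order, and 0.03 and -0.09. By the median of its probe sets Ndufs4 had 0.12 and -0.08. For Ndufb8 the second probe set, below the filter, had 0.34 and 0.20. With berberine it had -0.06 in BER+DNP against DNP and -0.20 in BER against control.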

How the results depend on the processing

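With 1 array a group, no array was left out and there was no spread between replicates, so changes in the second decimal of the members' medians are given. No paired analysis was possible because each group holds 1 array, so replicate numbers pair no samples. The median log2 difference of the members, -0.094 in BER against control, was -0.069 where a gene was read by the median of its probe sets, -0.041 without a filter, -0.121 under the stricter filter (75th percentile), -0.056 after quantile normalization, -0.055 once 32 was added to the signals and -0.108 without probe sets of suffix x or s. For BER+DNP over DNP the value of -0.135 became -0.0056 by the median of probe sets, -0.070 without a filter, -0.074 after quantile normalization and -0.061 once 32 was added. In DNP against control, 0.075 became 0.033 by the median of probe sets, 0.063 without a filter, 0.056 under the stricter filter and 0.037 once 32 was added. In BER+DNP against BER, 0.020 became 0.047 by the median of probe sets and 0.011 once 32 was added. In BER+DNP against control, -0.060 became -0.019 by the median of probe sets, -0.045 without a filter, -0.102 under the stricter filter, -0.046 after quantile normalization, -0.031 once 32 was added and -0.080 without suffix x or s. The medians of these 5 comparisons kept their sign under each of the 7 alternatives, but by the median of probe sets that for BER+DNP over DNP (-0.0056) was above all genes (-0.0157). Members below 0 in both berberine pairs numbered 14 of 25, but 9 of 23 by the median of probe sets (28.7% of all genes). Members below 0 in both antibody pairs numbered 4 of 25, but 8 of 35 without a filter (26.5% of all genes), 7 of 25 after quantile normalization (28.8%) and 6 of 23 by the median of probe sets (26.4%). Chosen after the values were seen, the median of probe sets was also applied to groups of members: core subunits had medians of -0.094 in BER against control and -0.0056 for BER+DNP over DNP, with 3 of 5 genes below 0 in both pairs, the distal arm -0.113 and -0.081, with 3 of 6, and the proximal arm 0.151 and 0.0080, with 1 of 6. Medians of the N module became -0.134 and 0.00, those of regulators -0.057 and 0.080, of assembly factors -0.097 and -0.108, and of complexes II to V -0.123 and -0.014. A count of 0 past 1.5-fold became 1 without a filter in BER+DNP against control, through Ndufs5. Genes with several probe sets all below 0 in both berberine pairs numbered 1 (of 11), 2 (of 7) under the stricter filter and 4 (of 10) without suffix x or s; fewer probe sets entered there. Of 535 recomputed values of named members, 504 kept their sign. The cause of the other changes was not tested. Dim signals limit the members near the filter.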
